A study of Mus musculus with 2 samples.

Results

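Annotated antisense RNA genes were examined in long-read RNA sequencing of heart tissue from untreated 2-month-old female mice of the B6CASTF1/J hybrid. The genes were chosen by their annotation type and by their own read counts. They carry the gene type antisense in GENCODE M21 and had at least 2 reads summed over both libraries, and Mhrt was left out. Of 2958 such annotated genes, 356 (12.04%) met this rule, 273 had a single read and 2329 had none. The least abundant genes inside the rule were 101 with exactly 2 reads. All read counts below describe genes that the counts themselves selected.

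The study held 1 group, heart, with 2 biological replicates of total RNA, each library made from 2 µg. The sample labels number the animals differently, whereas the library text names the same animal for both libraries and both carry the same donor identifier, so whether 2 animals were sampled is not settled. Tests between the libraries therefore measure counting error between these 2 libraries, and since reads carried no molecular identifiers, several may stem from the same RNA molecule. The libraries held 905154 and 745375 reads on transcript models, of which 859191 and 707758 fell on annotated genes. Cardiomyocyte markers summed to 41420 and 44600 CPM (counts per 1000000 reads of annotated genes) with 5 of 5 detected, against 149 and 165 CPM for 3 endothelial markers, 743 and 678 CPM for 3 fibroblast markers, 67.5 and 77.7 CPM for 3 macrophage markers and 0 CPM for 2 lung markers. The 3 adipocyte markers summed to 113 CPM in replicate 1 and 45.2 CPM in replicate 2. Blood and other cells of the heart were thus part of the tissue: 2 erythroid markers summed to 25530 and 23670 CPM. In bulk tissue, fewer cells of a type and less RNA per cell cannot be told apart.

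Antisense RNA genes are transcribed from the DNA strand opposite another gene, the sense partner. Some overlap the partner's exons, so that the 2 RNAs hold complementary stretches, others lie within its introns, and others start close to the partner's promoter and run away from it. Known examples act where they are made: Airn and Kcnq1ot1 silence neighbouring genes on one parental chromosome, and Tsix opposes Xist on the X chromosome. Most annotated antisense genes have no described function. A long read spans a transcript from end to end and keeps its introns as gaps, so a read with an intron carries its own evidence of splicing, which an unspliced read does not.

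The 356 genes together had 1801 reads in replicate 1 and 1530 in replicate 2. These were 0.210% (Wilson 95% interval 0.200% to 0.220%) and 0.216% (0.206% to 0.227%) of the reads of annotated genes. The intervals cover counting error only, and they overlap. Reads were concentrated in a few genes: 4 genes held 742 of the 3331 reads (22.3%) and the leading 20 held 1446 (43.4%). The median gene had 4 reads, 75 genes had 10 or more, and all 75 were seen in both libraries. Over all members, 277 were seen in both libraries, 40 in replicate 1 alone and 39 in replicate 2 alone, and the genes seen in 1 library had a median of 2 and at most 8 reads. A single read was worth 1.16 CPM in the first library and 1.41 CPM in the second. A gene without reads could hold up to 3.49 and 4.24 CPM, the worth of 3 reads.

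The gene with the most reads was Gm15543 (ENSMUSG00000086863.1, chromosome 6, 145182275 to 145187630, plus strand, mm10). It had 149 and 107 reads, or 162 ± 15.7 CPM (SD, n = 2), and 147 and 105 of these were spliced. It lies inside the body of Casc1, which runs on the minus strand and had 3 reads in each library, and it shares no exon base with Casc1. Both libraries thus held many reads of the antisense gene and few of the partner. All but 2 reads in each library followed an intron, and 252 reads in all matched the annotated Gm15543-201, of 2 exons and 361 bases. The first of the sequences shown in the next paragraph crosses its only junction.

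Spliced reads identify the antisense RNA by its exon junctions, so the junctions of the leading annotated transcripts are shown with 15 bases from each exon. The 5 bases on each side of the junction are in capitals. Sequences are those of the annotated GENCODE M21 transcripts, not of the reads, and are given 5′ to 3′ along the antisense RNA.
Gm15543-201: cagcagattcCTGAGATCCCaccctgaaca
Gm13375-201: ccgccgcactGCAAGGGCGGctgagcgatt
Atcayos-203: agatcttaaaCAAAATCTCTggcttttctt
Gm45670-201: taagaagcccGTTATGCATTgctgctggag
Gm15417-203: gcggcaagacCGCTGGAGTCttactatatc
Snhg9-201: cgttggcgtgTTCGGGTTCCcctggatatg
Gm48882-201: ttcttcctttAAAAGCGTGTttccatttgg
Sp3os-201: ccgtccacgtCCAAGGTATGcctgctgctc
The introns removed at these junctions ranged from 90 bases in Gm13375 to 13130 bases in Atcayos. Reads of the annotated transcript numbered 147 and 105 for Gm15543, 22 and 28 for Gm13375, 11 and 24 for Atcayos, 19 and 12 for Gm45670, 18 and 7 for Gm15417, and 13 and 10 for Gm48882. Snhg9-201 had 10 and 15 reads, and Sp3os-201, which has 3 exons and a further junction not shown, had 8 and 11.

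The 20 leading genes fell into kinds by how many of their reads were spliced. In 9 of them at least 80% of reads were spliced: Gm15543, D830024N08Rik, Gm13375, Gm11716, Gm15417, Gm45670, Sp3os, Gm48882 and 4930481A15Rik. In 6 no read was spliced: Gm43126, Gm20659, Gm15337, Gm37401, Gm26724 and 1600010M07Rik. The other 5, Atcayos, 4631405J19Rik, C130080G10Rik, Rab10os and Gm15283, held both kinds. Among the 75 genes with 10 or more reads, 22 were at or above 80%, 27 had no spliced read and 26 lay between.

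**Figure D1:**
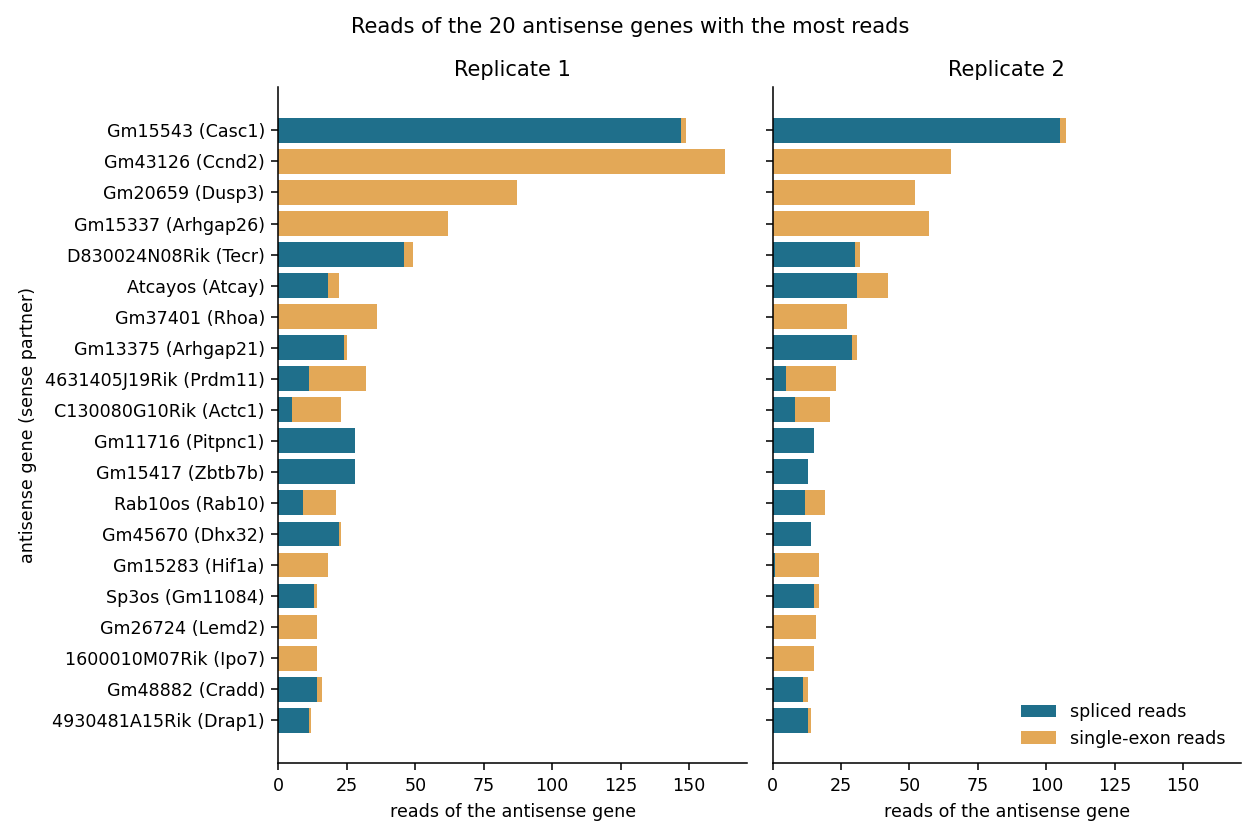
Reads of the 20 antisense genes with the most reads, in replicate 1 and replicate 2, with the sense partner in brackets. Each bar divides into reads on models with more than 1 exon and reads on single-exon models. Gm15543 is nearly all spliced and Gm43126, Gm20659, Gm15337 and Gm37401 are wholly single-exon in both libraries.

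Of the mostly spliced genes, D830024N08Rik (chromosome 8, 83576044 to 83585919, plus strand) had 49 and 32 reads, of which 46 and 30 were spliced. It lies inside Tecr, a reductase of very-long-chain fatty acid synthesis, which had 467 and 442 reads. Its leading model was unannotated, joined 3 exons of known splice sites over 83576044 to 83597300, and had 16 and 12 reads. Gm11716, inside Pitpnc1, a phosphatidylinositol transfer protein gene with 30 and 33 reads, had 28 and 15 reads, all spliced. Its leading model was likewise unannotated, with 3 exons and a splice site absent from the annotation, and had 15 and 8 reads. Gm45670 had 23 and 14 reads inside Dhx32 (52 and 48 reads), a helicase-family gene. Gm48882 had 16 and 13 reads against 13 and 17 for Cradd, a death-domain adaptor, so neither strand led in both libraries. 4930481A15Rik had 12 and 14 reads at the 3′ end of Drap1 (268 and 189 reads), a repressor of transcription initiation. Sp3os had 14 and 17 reads, and by the longest overlap its partner was Gm11084 with 1 and 0 reads. It also overlaps Sp3, the zinc-finger transcription factor for which it is named, and Sp3 had more reads than Sp3os in both libraries (29 and 30).

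Among genes with both kinds of read, Atcayos had 22 and 42 reads, of which 18 and 31 were spliced. It overlaps the 3′ end of Atcay (5 and 4 reads) and also Nmrk2, a nicotinamide riboside kinase of muscle, with 66 and 34 reads. 4631405J19Rik had 32 and 23 reads, with 11 and 5 spliced, inside Prdm11 (3 and 1 reads). Rab10os had 21 and 19 reads, with 9 and 12 spliced, at the 3′ end of Rab10 (226 and 183 reads), a small GTPase of vesicle transport. Gm15283 spans the whole of Hif1a, the oxygen-sensing transcription factor (24 and 32 reads). It had 18 and 17 reads, of which 0 and 1 were spliced.

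Among the 6 leading genes without a spliced read, the reads of Gm43126, Gm20659, Gm15337 and Gm37401 lay on exons of their partners. Gm43126 (chromosome 6, 127122966 to 127126155, plus strand) had 163 and 65 reads, all single-exon. Its end overlaps the end of Ccnd2, which encodes cyclin D2 and had 26 and 34 reads. The single model of replicate 1 lay wholly (100%) on the annotated exons of Ccnd2 and for 12.5% on the exons of Gm43126. Gm20659, within the terminal part of Dusp3, a dual-specificity phosphatase gene, had 87 and 52 reads against 81 and 60. Gm15337 had 62 and 57 reads at the end of Arhgap26 (7 and 18 reads), which encodes a GTPase-activating protein. A second annotated gene of the name Arhgap26 had 7 and 5 reads and was not taken as the partner. Gm37401 had 36 and 27 reads at the end of Rhoa (114 and 98 reads), the small GTPase of the actin cytoskeleton. For these 4 genes the reads on partner exons numbered 549. Gm26724 with 14 and 16 reads, inside Lemd2 (73 and 64), and 1600010M07Rik with 14 and 15 reads, which spans Ipo7 (22 and 18), had no spliced read either. Their leading models lay on partner exons for 26.0% and 0% of their length. 1600010M07Rik also overlaps Wee1 (11 and 13 reads) and Zfp143 (9 and 11 reads) on the other strand. Its 0% counts the exons of Ipo7 alone. All 3 of Gm43126, Gm20659 and Gm37401 are annotated with 2 exons, and their annotated junction was crossed by no read.

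**Figure D2:**
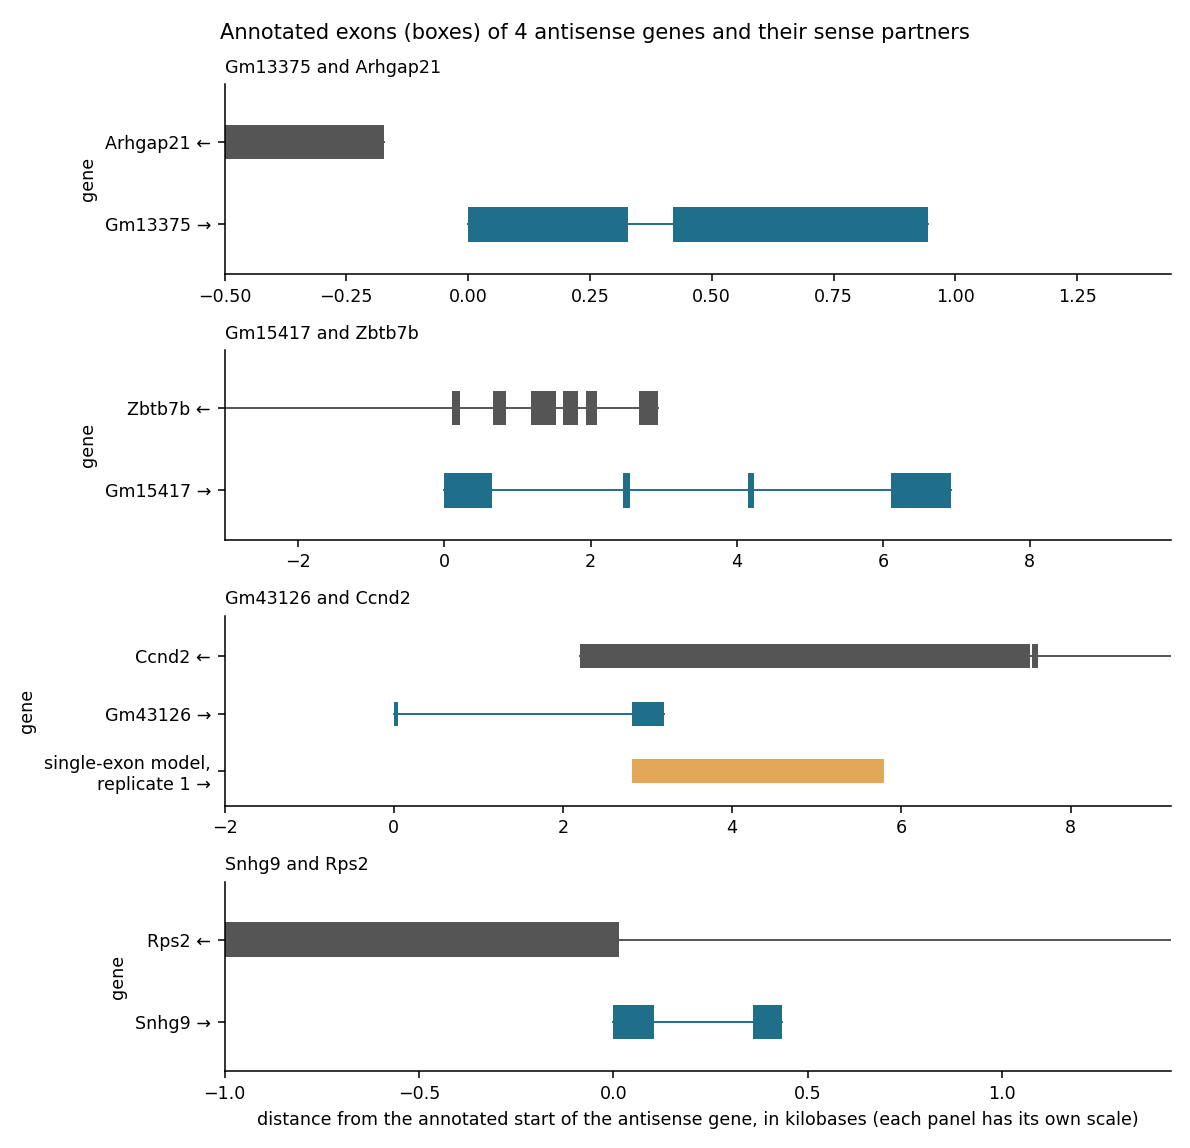
Annotated exons (boxes) and bodies (lines) of 4 antisense genes and their sense partners, by distance in kilobases from the annotated start of the antisense gene, which runs to the right while the partner runs to the left. Gm13375 starts 173 bases from Arhgap21 without overlap, the 5′ parts of Gm15417 and Zbtb7b overlap, the single-exon model of Gm43126 in replicate 1 (163 reads) lies inside the terminal exon of Ccnd2, and Snhg9 lies in an intron of Rps2 apart from 14 bases.

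Over all 356 genes, 39.6% (Wilson 95% interval 37.4% to 41.9%) of reads in replicate 1 and 40.4% (38.0% to 42.9%) in replicate 2 were spliced. The same share was 49.7% and 49.1% for 294 lincRNA genes, and 90.8% and 91.7% for 12128 protein-coding genes, both also with at least 2 reads. In both libraries the antisense share was below that of lincRNA genes and the intervals did not overlap, but this rests on few genes. Without Gm15543 the antisense share averaged 35.2%. Without Gm43126, Gm20659, Gm15337 and Gm37401 it was 49.1% and 46.5%, an average of 47.8%, close to that of lincRNA genes. Of the antisense genes 170 (47.8%) had no spliced read, 66 had only spliced reads and 120 had both. Genes without a spliced read made up 29.9% of lincRNA genes and 4.12% of protein-coding genes. The intervals cover counting error over reads and not the spread between genes. Of the antisense genes, 300 are annotated with spliced transcripts alone, and 135 (45%) of these had no spliced read, against 25% of such lincRNA genes. All these shares by gene depend on depth, since a gene with few reads more easily lacks a spliced one. The antisense genes had a median of 4 reads, against 27 for the protein-coding genes.

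By class of transcript model, 1816 antisense reads (54.5%) were genomic, the TALON class for reads that overlap a gene without following its splice junctions, and 974 (29.2%) were annotated. Models with a splice site absent from the annotation had 309 reads (9.28%), incomplete matches 121 (3.63%) and new joins of known sites 111 (3.33%). Genomic reads were 24.8% for lincRNA genes and 5.01% for protein-coding genes. The models of spliced antisense reads had a median of 784 bases and 2 exons, and 61.6% of these reads had exactly 2 exons. Gm15543-201, of 2 exons and 361 bases, alone held 252 of the 1331 spliced reads and so weighs on these values. The medians were 1437 bases and 3 exons for lincRNA genes and 1955 bases and 8 exons for protein-coding genes. Exactly 2 exons were found in 39.8% of spliced lincRNA reads and 5.32% of spliced protein-coding reads.

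**Figure D3:**
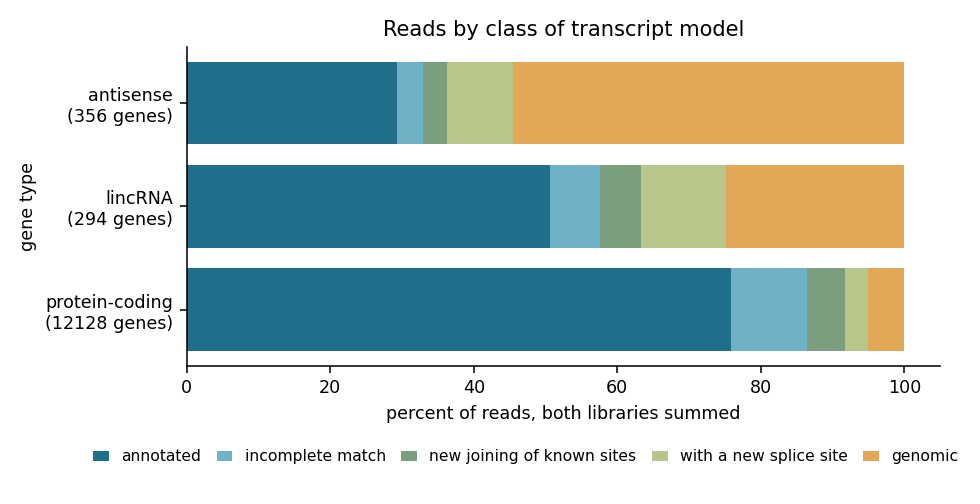
Percent of reads in each class of transcript model for antisense, lincRNA and protein-coding genes with at least 2 reads, both libraries summed. Genomic reads make up 54.5% of antisense reads, 24.8% of lincRNA reads and 5.01% of protein-coding reads.

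The spliced reads of the antisense genes followed 435 distinct chains of introns, of which 109 were seen in both libraries. There were 130 annotated chains, with 54 in both libraries, and 305 unannotated chains, with 55 in both. The annotated chains held 825 (62.0%) of the 1331 spliced reads. For 97 of the 186 genes with a spliced read the leading chain was not annotated. Where the leading chain had at least 5 reads this was so in 8 of 30 genes, namely D830024N08Rik, Gm11716, Gm10602, Gm19522, AC110206.1, Gm12002, Mir133a-1hg and 1810034E14Rik, of which the last 6 were chosen after their values were seen. Mir133a-1hg, the host transcript of a muscle microRNA, had 7 and 3 reads, of which 5 and 2 were spliced and none matched its annotated transcript. It lies inside Mib1 (23 and 20 reads), a ubiquitin ligase of Notch signalling.

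Spliced and single-exon reads differed in where they lay, in part by definition. The 825 spliced reads on annotated chains lie on the exons of their own gene because they match its annotated transcripts. Genomic reads need only overlap the gene. Of the 1331 spliced reads, 1145 (86.0%) lay for at least 50% of their length on the annotated exons of their own gene and 55 (4.13%) on exons of the partner. Of the 2000 single-exon reads, 411 (20.6%) lay on their own exons and 807 (40.4%) on the partner's. These 807 reads came from 65 genes, but Gm43126, Gm20659, Gm15337 and Gm37401 held 68.03% of them. Without these 4 genes, 258 of 1451 single-exon reads (17.8%) lay on partner exons. In all these counts each read was placed by the extent of its deposited model, not by its own. The extents of single-exon models are approximate, since 14 of the 617 such models of the antisense genes were deposited with a length of 1 base. For Gm45051, with 7 such reads in each library, the model had 289 bases in replicate 1 and 683 in replicate 2. It lay on partner exons for 0.346% and 57.8% of its length. Only 1 read, of A330032B11Rik, shared an intron with a gene on the other strand.

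Strandedness was measured on the ERCC spike-in RNAs, which are added in 1 known orientation. Antisense reads were 93 of 11019 (0.844%, Wilson 95% interval 0.690% to 1.03%) in replicate 1 and 46 of 7250 (0.635%, 0.476% to 0.845%) in replicate 2. The spike-in RNAs have no introns, so they cannot show whether wrong-strand reads appear spliced. In each library 1 spike-in, with 76 and 26 reads, was read in the antisense direction alone, and without it the shares were 0.155% and 0.277%. The antisense reads per 100 sense reads of 316 genes were above 0.844 and those of 13 were below, 8 of which had a spliced read. At the higher of the levels without that spike-in, 0.277, only A930016O22Rik, Gm15179 and Gm4285 were below. Both counts follow largely from the rule, since every gene needed at least 2 reads. A partner with few reads thus put its gene above either level, and partners had a median of 29 reads. The counts therefore cannot show how many genes exceed the level of wrong-strand reads. The 13 included A930016O22Rik, with 1 and 2 reads against 6305 and 5219 for Ckm, and Gm15179, with 1 and 1 against 2216 and 1972 for Des. Ckm encodes muscle creatine kinase and Des encodes desmin, and both are abundant in heart. Neither A930016O22Rik nor Gm15179 had a spliced read. The part of sense RNA read on the other strand in the single-exon counts was not tested.

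By position, 341 of the 356 genes (95.8%) overlapped a gene on the other strand, and 122 (34.3%) started within 1000 bases of a start on the other strand, the arrangement called divergent here. The name refers to this distance alone, and the 2 genes were not required to point away from each other. In 76 of the 122 the bodies of the pair with the nearest start overlapped. Both held for 110 genes, 12 were divergent without overlap, and Gm12996, Foxo6os and Gm11730 were neither. Among all 2958 annotated antisense genes, 93.5% overlapped and 22.9% were divergent. The partner, by rule the protein-coding gene with the longest overlap, was protein-coding for 351 genes, and 348 distinct partners were found. Ccnd2, Kif3c, Sox6, Usp54 and Vwa8 were each shared by 2 antisense genes. The member lay inside its partner in 147 genes, met it tail to tail in 85 and head to head in 85, enclosed it in 23 and stood apart from it in 13. Annotated exons overlapped in 242 genes (67.98%), by a median of 326.5 bases.

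The spliced share ranged widely over these arrangements. Spliced reads made up 69.4% of the 157 reads of the 13 genes standing apart from their partner, 47.9% of the 1446 reads of genes inside the partner, 41.4% of the 582 reads of head-to-head genes, 26.4% of the 916 reads of tail-to-tail genes, and 13.1% of the 199 reads of genes enclosing their partner. Each library gave the same order, and head-to-head and tail-to-tail genes were at 45.4% and 22.6% in replicate 1 and at 37.5% and 31.3% in replicate 2. Single genes weigh on these shares. Gm15543, with 147 and 105 spliced reads, weighs on the genes inside their partner. Gm43126, with 163 and 65 reads and none spliced, weighs on the tail-to-tail genes. The shares without such genes were not computed, so the order may rest on few genes. Counted by gene, the share without a spliced read was 7.69% for genes standing apart, 47.1% head to head, 51.7% inside, 51.8% tail to tail and 39.1% for genes enclosing the partner. Divergent genes had 47.3% and 44.9% of reads spliced in the 2 libraries, against 37.3% and 38.9% for the others.

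Among the divergent genes, 55 had their nearest start on the other strand in the partner itself and 67 in another gene, and the median distance between starts was 265.5 bases. The bodies of the pair with the nearest start overlapped in 76 and stood apart in 46. Gm13375 (chromosome 2, 20969054 to 20969997, plus strand) had 25 and 31 reads, of which 24 and 29 were spliced. It starts 173 bases from Arhgap21, a GTPase-activating protein gene with 7 and 11 reads. C130080G10Rik had 23 and 21 reads and starts 787 bases from Actc1, which encodes cardiac actin and had 2506 and 1917 reads. It overlaps A530058N18Rik on its own strand, which had 199 reads, so its own count is uncertain. In all 18 antisense genes overlapped a gene with reads on their own strand.

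In 5 genes that stand apart from the partner, the whole stretch between the 2 starts lies in a RefSeq promoter window of build GRCm38.p6, so both starts can be seen with what separates them. The stretches exclude both starts and are printed 5′ to 3′ along the antisense strand. Capitals mark GGGCGG or CCAAT on either strand (CCGCCC or ATTGG when reversed).
2810001G20Rik and Cox10: gtgaggcgggacttc
Map2k3os and Map2k3: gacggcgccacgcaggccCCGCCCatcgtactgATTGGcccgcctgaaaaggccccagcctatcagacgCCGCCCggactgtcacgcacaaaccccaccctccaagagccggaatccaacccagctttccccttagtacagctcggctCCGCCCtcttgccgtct
Gm11520 and Kat7: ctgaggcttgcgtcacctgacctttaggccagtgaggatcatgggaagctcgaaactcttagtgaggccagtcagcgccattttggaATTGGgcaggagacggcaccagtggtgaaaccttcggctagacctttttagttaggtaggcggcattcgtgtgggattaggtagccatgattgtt
Gm4285 and Tpt1: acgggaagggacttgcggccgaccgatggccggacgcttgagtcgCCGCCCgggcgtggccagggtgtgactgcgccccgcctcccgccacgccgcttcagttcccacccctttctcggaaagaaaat
Gm7467 and Clock: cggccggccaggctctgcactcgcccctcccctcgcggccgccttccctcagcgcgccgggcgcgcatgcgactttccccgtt
These lie at chr11:64079469-64079483, chr11:60931868-60932032, chr11:95310247-95310428, chr14:75844965-75845092 and chr5:76304793-76304875 in that order. 2810001G20Rik had 7 and 10 reads, 12 of them spliced, and starts 16 bases from Cox10, a gene of heme A synthesis for cytochrome oxidase with 126 and 129 reads. Map2k3os had 5 and 1 reads beside the kinase gene Map2k3 (140 and 119), Gm11520 2 and 1 beside the acetyltransferase gene Kat7 (3 and 8), Gm4285 2 and 0 beside Tpt1 (449 and 391), and Gm7467 2 and 0 beside the circadian gene Clock (13 and 10). These 5 genes were picked with their values in view. The stretch at Map2k3 held GGGCGG 3 times and CCAAT 1 time, that at Kat7 held CCAAT 1 time, that at Tpt1 held GGGCGG 1 time, those at Cox10 and Clock held neither, and TATAAA was found in none.

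A RefSeq window of 300 bases, from 250 before to 50 after the start, was matched by symbol for 154 of the 356 genes. TATAAA on either strand occurred in 10.4% of these windows against 13.6% of all 32851, CCAAT in 37.7% against 37.4% and GGGCGG in 38.3% against 35.7%. The number of CG dinucleotides had a median of 8 for the matched genes and 7 for all windows. It was 27 for the 57 divergent genes matched and 6 for the other 97.

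Of the 110 genes both overlapping and divergent, the 5 with the most reads were Gm37401, described above, Snhg9, Gm11973, 1110002L01Rik and Zbtb11os1. The start of Gm37401 lies 630 bases from that of Gpx1 (61 and 56 reads), the glutathione peroxidase gene. Snhg9, the host of a small nucleolar RNA, had 10 and 15 reads, all spliced, within Rps2, a ribosomal protein gene with 97 and 66 reads. Its nearest start on the other strand was not that of Rps2 but of the small nucleolar RNA gene Snora64 (0 and 0 reads), 807 bases away. Gm11973 had 11 and 11 reads, none spliced, against 36 and 15 for Purb, a repressor of muscle myosin genes. 1110002L01Rik had 11 and 6 reads, 8 and 5 of them spliced, against 3 and 12 for the kinesin gene Kif3c, and its nearest start was that of Asxl2 (1 and 3 reads), 154 bases away. Zbtb11os1 had 9 and 8 reads, all on its annotated single exon, against 6 and 11 for Zbtb11.

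Exon overlap gives complementary RNA. Of the 134 genes with a read on an annotated transcript and a partner, and on the chromosomes whose sequences were read, the leading transcript of 74 shared a stretch of at least 30 exon bases with a partner transcript. The shared exon bases had a median of 247, or 17.7% of the antisense transcript. For 3 genes with spliced or annotated reads, 30 bases from the middle of the longest shared stretch are shown for the antisense RNA and then for the sense RNA, each 5′ to 3′, and each pair is reverse complementary.
Gm15417-203: ggggacccgccctctctccaaacactagca
Zbtb7b-202: tgctagtgtttggagagagggcgggtcccc
Gm48882-201: actgctagggaacctgtaccataaagacca
Cradd-203: tggtctttatggtacaggttccctagcagt
Zbtb11os1-201: ccctcggtgcccggcgcatagggctcgcgt
Zbtb11-201: acgcgagccctatgcgccgggcaccgaggg
The longest shared stretch was 100 bases between Gm15417-203 and Zbtb7b-202, 133 bases between Gm48882-201 and Cradd-203, and 489 bases between Zbtb11os1-201 and Zbtb11-201. The shown bases lie at chr3:89392004-89392033, chr10:95324052-95324081 and chr16:55974112-55974141. Gm15417 had 28 and 13 reads, all spliced, and overlaps head to head with Zbtb7b (6 and 6 reads), a zinc-finger transcription factor gene.

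Read counts of the 2 strands were compared for the 329 genes whose partner had reads, while the partners of 24 had none. The median was 13.3 antisense reads per 100 sense reads (interquartile range 4.29 to 42.9), and 12.5 and 11.1 in the separate libraries. The rule favours this ratio upward, since genes below 2 reads were not taken. Partners had a median of 29 reads, beside 27 for all protein-coding genes with at least 2 reads. Partners did not have to meet that minimum, so the 2 sets are unlike. The antisense gene had fewer than 5 reads per 100 in 93 pairs and fewer than 1 per 100 in 17.

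**Figure D4:**
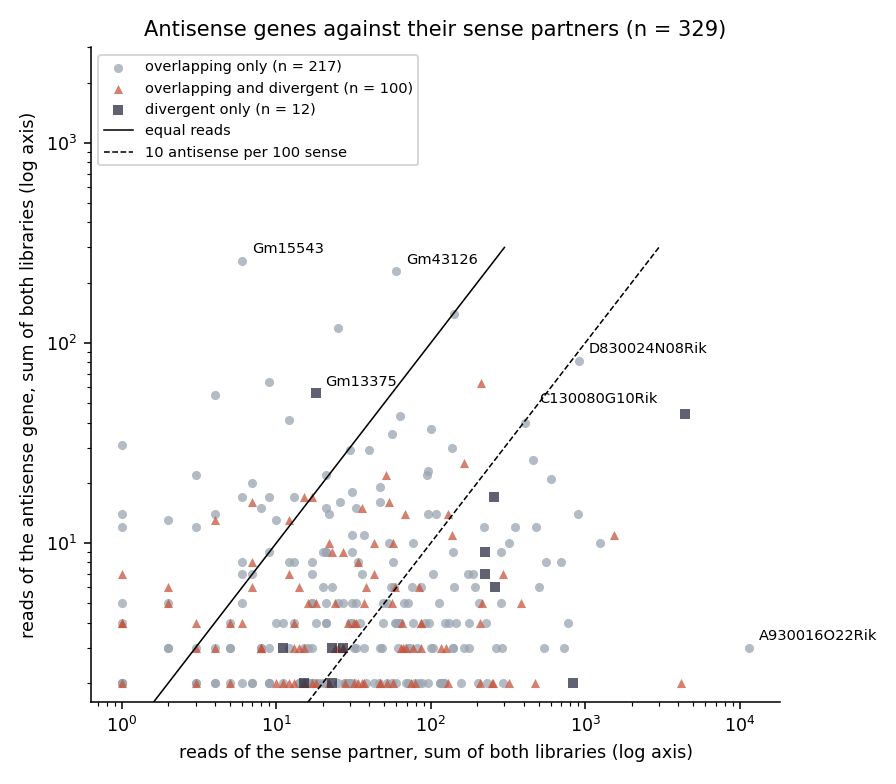
Reads of each antisense gene against those of its sense partner, both libraries summed, on log axes, for the 329 pairs whose partner had reads. Points above the solid line, 44 in all, had more antisense than sense reads, and the dashed line marks 10 antisense per 100 sense reads.

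The antisense gene had more reads than its partner in 44 pairs (13.4%), and 5 pairs were equal. The number was 39 in replicate 1 alone, 23 in replicate 2 alone and 13 on annotated models only. The partners in the 44 pairs had a median of 3.5 reads. In 14 pairs this held in each library: Gm15543, Gm43126, Gm15337, Atcayos, Gm13375, 4631405J19Rik, Gm15417, A930015D03Rik, Gm28609, Brip1os, Gm45051, Gm10371, 1810034E14Rik and Gm17690, of which the last 7 were chosen after their values were seen. Of these 14, 4 did not exceed another gene they overlap on the other strand in each library: Atcayos (Nmrk2, 66 and 34 reads), A930015D03Rik (H2-T23, 19 and 13 against 10 and 10), Brip1os (Med13, 2 and 7 against 11 and 5) and Gm17690 (Sf3b4, 15 and 21 against 3 and 2). Of the 44 pairs, 10 antisense genes did not exceed another such gene in summed reads. Among partners with at least 10 reads, the ratio was highest for Gm15337 (476 per 100 of Arhgap26), Gm43126 (380 per 100 of Ccnd2), Gm15417 (342 per 100 of Zbtb7b), Gm13375 (311 per 100 of Arhgap21) and Tsix (131 per 100 of Xist). The ratio for Gm15337 leaves out a second annotated gene named Arhgap26 (7 and 5 reads). Counting it would lower that ratio, so the order of the first genes is uncertain. Gm15337, Gm43126 and Tsix had no spliced read, whereas Gm15417 had spliced reads alone and Gm13375 nearly so.

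A low ratio follows largely from an abundant partner, since antisense reads hardly rose with partner reads (Spearman rank correlation 0.087 over 329 pairs). The antisense genes named here have partners abundant in heart and were chosen after their values were seen. They are not those with the lowest ratios: D830005E20Rik reached 1.57 and Gm15856 3.47 reads per 100. D830005E20Rik had 4 and 10 reads, 1 and 5 of them spliced, inside Trdn (494 and 400), which encodes triadin of the calcium release complex. Gm15856 had 14 and 7 reads, none spliced, inside Tuba8 (357 and 248), a tubulin gene. C130080G10Rik reached 0.995 reads per 100 of Actc1.

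Antisense RNAs known from other work were taken from a list of 30 names. Of these 29 were found in the annotation, 17 have the type antisense, and 9 of the 17 were among the 356 genes. Airn, of the imprinted Igf2r locus, had 13 and 10 reads, 2 and 1 of them spliced, against 59 and 37 for Igf2r. Tsix had 9 and 8 reads, none spliced, against 4 and 9 for Xist. The libraries thus gave opposite orders for Tsix and Xist, at low counts. Tsix also encloses Xist, and of its single-exon reads 15 lay on Xist exons.

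Kcnq1ot1 had 3 and 1 reads inside Kcnq1 (34 and 25 reads), which encodes a potassium channel of the heart. Foxo6os had 5 and 7 reads, all on its annotated spliced transcript, and no partner. Tbx3os1 had 2 and 5 reads beside Tbx3 (1 and 0), a transcription factor gene of the conduction system. Zeb2os had 3 and 0 reads, and Hotairm1, Hoxb3os and Hoxd3os1 had 1 read in each library. Of the others of antisense type, Nespas, Dlx6os1, Emx2os, Nkx2-2os and Pax6os1 had no read, and Wt1os, Dnm3os and Dlx1as had 1.

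Well-known RNAs outside that list were also present and were chosen after their values were seen. Tug1 had 3 and 7 reads, 0 and 6 of them spliced, with its start 482 bases from that of Morc2a (14 and 8 reads). Gt(ROSA)26Sor, the locus into which transgenes are often placed, had 10 and 6 reads, 7 and 4 of them spliced. Its start lies 32 bases from that of Setd5 (3 and 1 reads), and its end overlaps that of Thumpd3 (31 and 23 reads).

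Between the libraries, 75 antisense genes had at least 10 reads and 281 had fewer. The former were tested by a two-sided exact binomial test, conditional on each gene's total and set against the depth of each library. Gm43126 alone was called, at an adjusted p below 0.05 (Benjamini-Hochberg over 9334 genes) and at least 2-fold, which is 1 of 75 beside 0.321% of all genes tested. It was 2.07-fold lower in replicate 2 (exact 95% interval 1.54 to 2.80), with an adjusted p of 8.18e-05 by the exact test. The call was lost with edgeR's exact test at a preset variation of 0.1, where the adjusted p was 0.226, and over the other 4 alternatives that gave it a p the adjusted p ranged from 7.11e-06 to 0.000118. All its reads were single-exon and genomic, so no annotated model carried the difference. Adipocyte markers were also lower in replicate 2 (Cfd 82 and 29 reads, Adipoq 10 and 2, Plin1 5 and 1), and their part in the difference of Gm43126 was not tested. At an unadjusted p below 0.05 there were 4 antisense genes (5.33%), against 8.53% of all genes tested. Gm15543 did not pass, with a ratio of 1.15 in favour of replicate 1 (0.889 to 1.49, adjusted p = 0.892 by the exact test).

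**Figure D5:**
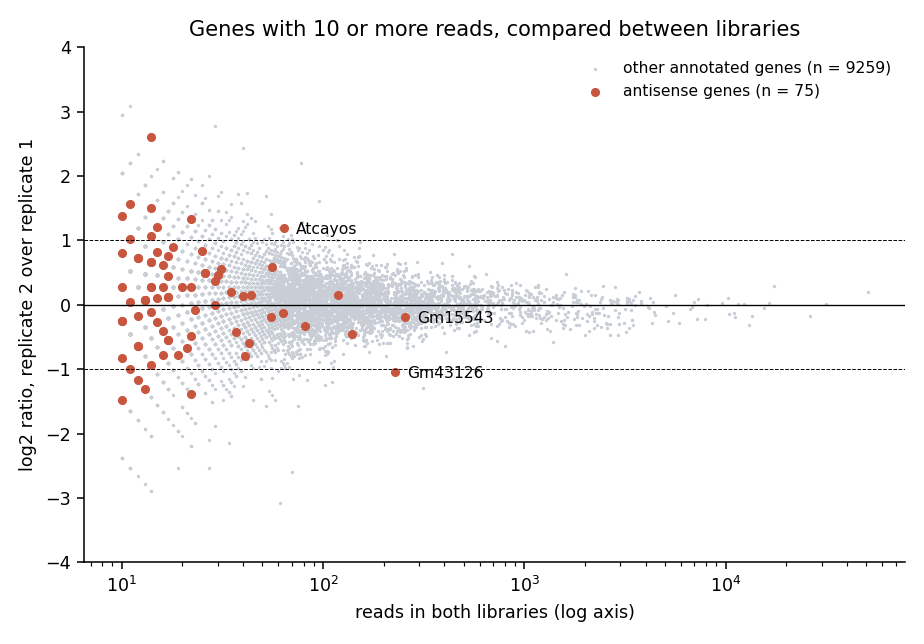
Log2 ratio of replicate 2 over replicate 1 against total reads (log axis) for annotated genes with at least 10 reads, with the 75 antisense genes in red and dashed lines at 2-fold. Gm43126 lies just past 2-fold on the replicate 1 side, and 60 of the 75 antisense genes lie within 2-fold.

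The tested antisense genes had a median log2 ratio of 0.12 against 0.05 for all genes, and 60 of 75 (80%) lay within 2-fold against 92.4% of all genes, most of which have more reads. The ratio of the 2 strands was compared with Fisher's exact test for overlapping pairs on opposite strands with at least 10 reads each. Of 60 pairs with an antisense gene of the set, 2 were called, beside 0.477% of all 839 pairs. Gm43126 had 627 reads per 100 of Ccnd2 in replicate 1 and 191 in replicate 2 (163 and 65 against 26 and 34, adjusted p = 0.0220 by Fisher's exact test). Atcayos had 33.3 reads per 100 of Nmrk2 in replicate 1 and 124 in replicate 2 (22 and 42 against 66 and 34, adjusted p = 0.0220 by Fisher's exact test). On its own Atcayos was 2.32-fold higher in replicate 2 and was not called (adjusted p = 0.0997 by the exact test). With annotated models alone, neither pair was called, and Gm43126 has no reads there.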

How the data were processed

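Reads were counted per transcript model by the authors, and the deposited counts were whole numbers that were neither normalized nor pooled. Per the file headers and labels, models are TALON's on mm10 with GENCODE M21. For the aligner and filters, nothing is given in the sources used here. The deposited model lengths and exon numbers were used as given, per the file headers. All models of a gene were summed, and CPM used 859191 and 707758 reads of annotated genes. A read was spliced if its model had more than 1 exon. The partner was the protein-coding gene on the other strand with the longest overlap, else the one with the nearest start within 1000 bases. Genes with at least 10 reads were tested between libraries with an exact conditional binomial test (scipy 1.17.1), and overlapping pairs with Fisher's exact test, with Benjamini-Hochberg adjustment over all genes or pairs, and both tests were tried on simulated data. Alternatives used edgeR 4.0.16 TMM factors, DESeq2 1.42.0 size factors, other minimums and annotated models only. Wilson intervals have 95% confidence, and log2 ratios used 0.5 added reads.

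Named genes were the 20 with the most reads, every called gene, every listed known antisense RNA, the 5 with the most reads relative to a partner of at least 10 reads, the 5 leading genes that both overlap and are divergent, and all their partners. Members and lists were chosen with earlier results of these data known. Splice-site dinucleotides and 3′-end base content, which need the genome sequence, were not analysed here. A result on 1 further gene pair is not reported here.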

Additional observations from a re-analysis of the deposited data

How the results depend on the processing

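The number of antisense genes called between libraries was 1 with TMM factors, DESeq2 size factors, minimums of 2 and 20 reads and no fold minimum. It was 0 on annotated models only and 0 with edgeR's preset variation of 0.1. The number of pairs called was 2 at minimums of 5 and 20 reads and 0 on annotated models only, where Gm43126 has no reads to test. Divergent genes numbered 122, and 186 when the start of any annotated transcript counted and 46 when bodies could not overlap, both chosen after seeing the data. With annotated models only, the spliced share was 84.6% in place of 39.99%, the median was 11.1 antisense per 100 sense reads in place of 13.3, genes above their partner numbered 13 in place of 44, and the share of annotated gene reads was 0.0823% in place of 0.213%. Without the gene with the most reads, the spliced share was 35.2% and the read share 0.197%. Without the 4 genes with the most single-exon reads on partner exons, chosen after seeing the data, the spliced share was 47.8%. The median rose to 29.4 per 100 among genes with at least 5 reads and 45.5 with at least 10. Leaving out each replicate gave medians of 11.1 to 12.5 per 100 and 23 to 39 genes above their partner. No paired analysis was possible because there is 1 group. Low counts limit most genes: 281 of 356 lay below the minimum of 10 reads.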

Other observations

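RNAs on the opposite strand of a known gene that carry another annotation type lie outside the set described above, and they were chosen after their values were seen. Hand2os1, transcribed away from the cardiac transcription factor gene Hand2 and typed as a processed transcript, had 85 and 66 reads. Gas5 and Zfas1, hosts of small nucleolar RNAs of the same type, had 23 and 19 and 7 and 3 reads. Mhrt, left out by rule, had 64 and 47 reads. An AATAAA or ATTAAA in the last 50 bases, the usual polyadenylation signal, was held by 52.1% of the 169 annotated antisense transcripts with reads, against 58.6% of 186 lincRNA and 69.4% of 17934 protein-coding transcripts. Counted by reads, the shares were 41.5%, 58.7% and 78.5%. Gm15543-201 alone held 252 of the 974 antisense reads in that count.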
